A study of Mus musculus with 45 samples.

Results

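The expression of 10 genes of fatty acid uptake, intracellular fatty acid binding and lipid droplets was described in mouse liver across an alcohol feeding study and its resolution. The genes are Cd36 and Lpl, which act in uptake, Fabp2, Fabp4 and Fabp5, which bind fatty acids, and Plin2, Plin4, Plin5, Cidea and Cidec, which sit on droplets. They were taken by name from a table of 24946 usable genes. Levels are in TPM, a share of a library's transcripts corrected for transcript length, a unit inferred from the deposited values. All 10 genes had a mean above the low-value limit of 0.5 TPM and are among the 11244 genes tested. They were chosen by function, with their measured differences in TPM between the 12 groups already known, so these differences are descriptions, and an adjusted p beside them only sets their size against the spread between libraries.

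Wild-type mouse livers were lysed and sequenced in bulk as 45 libraries, which fall into 12 groups by stage, diet label and sex label. Ethanol-labelled mice received the Lieber-DeCarli ethanol diet, a liquid diet, for 6 weeks. They were taken then (peak), after a further 3 days on the control diet (early resolution), or after a further 2 weeks on it (late resolution). Control-labelled mice are labelled with the control diet at the same stages. There were 4 libraries per group, except in 3 ethanol groups, early female and late male and female, which had 3. The labels give neither the strain nor the age, and they do not say that the libraries of a group came from separate mice, so p-values measure only the spread between these libraries. In bulk liver, more cells of a type and more RNA per cell cannot be told apart.

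Fatty acids reach hepatocytes mainly from the blood. Lipoprotein lipase (Lpl) frees them from triglyceride-rich lipoproteins at the vessel wall, CD36 helps carry them across the plasma membrane, and small fatty acid binding proteins (FABPs) keep them soluble inside the cell. Surplus is esterified to triglyceride and stored in droplets, whose surface is coated by perilipins (Plin genes) and, in enlarging droplets, by CIDE proteins, which pass lipid from small droplets to large ones. Fatty liver is the earliest lesion of alcohol feeding, and several of these genes are known targets of the fatty acid sensing receptors of the PPAR family.

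Markers went against some labels, and this bears on every result. The hepatocyte markers Alb, Ttr, Apoa1, Cps1 and Hnf4a summed to 66678 to 193015 TPM and were high in every library. That sum, most of it Alb (median 116208 TPM, against 302 TPM for Hnf4a), had higher medians with the ethanol label. They were 147733 against 126226 TPM at peak, 156114 against 105392 TPM at early and 181564 against 112889 TPM at late resolution. There 1, 1 and 2 of the 5 markers were called higher as deposited. After median-of-ratios scaling, described below, 1 was called higher at each stage, and 1, 0 and 1 lower. The median log2 difference of the 5 was then 0.07, -0.05 and 0.09. The part of these markers in the results was not tested. Transcripts of the sex chromosomes followed the diet label and not the sex label. In 21 of 21 ethanol-labelled libraries Xist, transcribed from the inactive X chromosome, stood at 13.7 to 51.8 TPM and the Y-linked Eif2s3y at no more than 0.0386 TPM. Of 24 control-labelled libraries, 23 had Eif2s3y at 7.83 to 12.7 TPM and Xist at no more than 0.349 TPM, and the exception was late control female 1. The sex label and these transcripts disagreed in 22 of 45 libraries. A difference by diet label and a difference by sex as these transcripts show it therefore cannot be told apart, and "ethanol-labelled", "male-labelled" and the like name labels throughout. Another 2 libraries carried transcripts of other tissues. Peak ethanol female 1 had 641 TPM of the muscle gene Ckm, against at most 0.490 TPM in the others, and late ethanol male 1 had 23.3 TPM of the adipocyte gene Adipoq, against at most 2.40 TPM. The 2.40 TPM was in peak ethanol female 1, and no further library exceeded 1.28 TPM of Adipoq.

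The 10 genes spanned a wide range of levels. On the TPM scale, which is per transcript length, Plin2 averaged 1133 TPM over the 45 libraries, followed by Fabp2 at 206 TPM and Fabp5 at 82.1 TPM. Plin5, Cidec, Plin4, Cd36 and Fabp4 averaged between 19.5 and 25.9 TPM. Lpl, at 4.29 TPM, and Cidea, at 3.42 TPM, were lowest. Cidea was listed at 0 in 4 libraries, and no other member was at 0 in any.

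At peak, Cd36, Plin2, Fabp4 and Fabp5 were higher and Cidea was lower in ethanol-labelled than in control-labelled libraries, while Cidec, Lpl, Plin4, Plin5 and Fabp2 did not pass the test. The test was limma on log2(TPM + 0.5), with p-values adjusted over all genes tested and a call at an adjusted p under 0.05. These 5 of 10 calls, 4 higher and 1 lower, stand beside 27.1% of all genes called in that comparison, 17.3% higher and 9.81% lower. The median log2 difference of the 10 genes was 0.42, against 0.05 for all genes. At early resolution 3 members were called higher and 2 lower, beside 16.7% of all genes (14.3% higher and 2.46% lower), with medians of 0.31 for the members and 0.13 for all genes. At late resolution 1 was called higher and 1 lower, beside 12.8% of all genes (8.82% higher and 3.98% lower), with medians of 0.14 and 0.05. Because all genes together were shifted by 0.13 at early resolution, differences there are also given after median-of-ratios scaling, which sets that shift to about 0. After it, 1 member was called higher and 2 lower, beside 16.7% of all genes, 45.5% of those higher, against 85.3% of the calls higher as deposited.

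**Figure D1:**
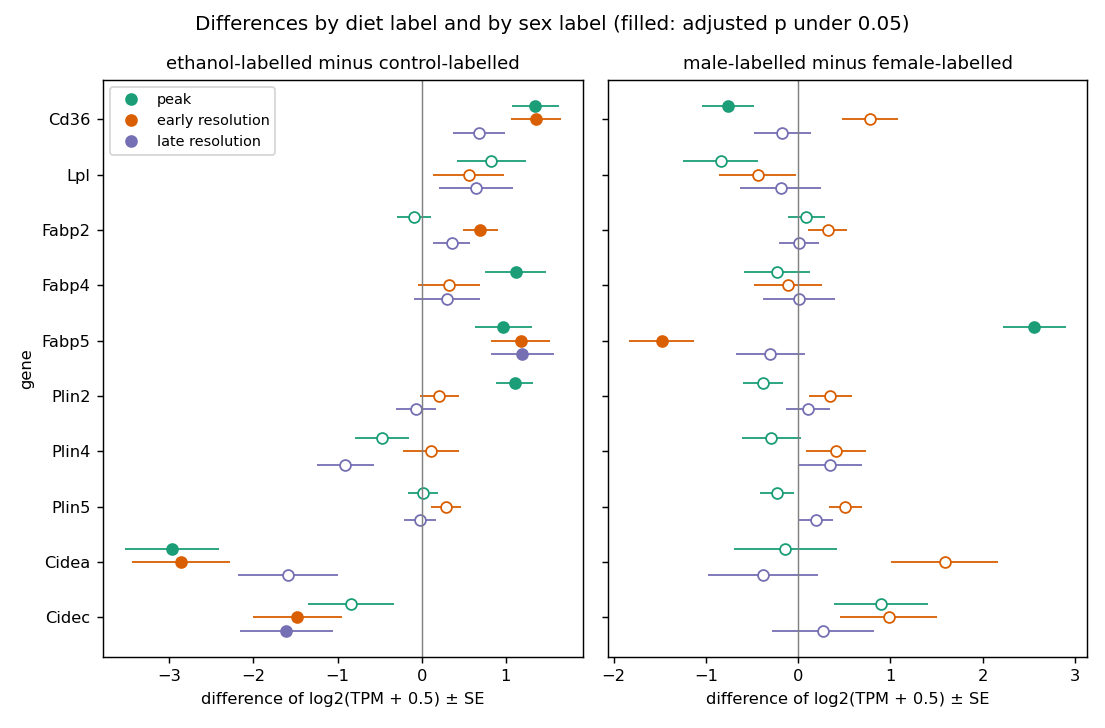
Differences of log2(TPM + 0.5) with their SE for the 10 genes, ethanol-labelled minus control-labelled (left) and male-labelled minus female-labelled (right), at the 3 stages. Filled points passed an adjusted p of 0.05 as deposited. Cd36 lies right of 0 on the left panel at all stages, Cidea lies left of 0, and Fabp5 on the right panel lies at 2.56 at peak and at -1.48 at early resolution.

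Cd36, the plasma membrane fatty acid translocase, lies at chr5:17781690-17888801 on the minus strand (GENCODE M21, GRCm38). At peak it stood at 24.8, 36.4, 22.0 and 29.2 TPM in ethanol-labelled males and 26.4, 25.7, 31.5 and 36.2 TPM in ethanol-labelled females, against 4.32, 5.81, 5.07 and 13.5 TPM in control-labelled males and 14.0, 17.3, 18.9 and 23.3 TPM in control-labelled females. The ethanol-labelled libraries lay close together, and only the highest control-labelled female reached the lowest of them. The log2 difference was 1.35 ± 0.28 (SE, adjusted p = 0.00047), a 2.56-fold higher level, in 8 of 8 libraries. Within the male label, where 23.4% of genes were called, it was 2.01 ± 0.40 (SE, adjusted p = 0.00038) and within the female label 0.70 ± 0.40 (SE, adjusted p = 0.32). The difference between these effects was 1.31 ± 0.57 (SE, adjusted p = 0.34), which missed the threshold.

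At early resolution Cd36 stood at 34.2, 14.1, 29.6 and 50.5 TPM in ethanol-labelled males and 28.6, 11.3 and 37.3 TPM in ethanol-labelled females, against 19.1, 14.9, 16.8 and 11.4 TPM in control-labelled males and 4.08, 5.79, 5.61 and 11.4 TPM in control-labelled females. The ethanol-labelled libraries were higher on average, but a female at 11.3 TPM and a male at 14.1 TPM lay among the controls. The log2 difference was 1.36 ± 0.30 (SE, adjusted p = 0.0014) as deposited and 1.18 ± 0.27 (SE, adjusted p = 0.0025) after median-of-ratios scaling, so the difference between the diet labels passed the test under both. At late resolution the values were 20.7, 22.4 and 25.4 TPM in ethanol-labelled males and 12.1, 24.2 and 26.8 TPM in ethanol-labelled females, against 19.5, 15.2, 5.95 and 7.76 TPM in control-labelled males and 39.6, 12.1, 9.46 and 13.7 TPM in control-labelled females. The groups overlapped there, since late ethanol female 1, at 12.1 TPM, lay among the controls, and late control female 1, the control-labelled library with Xist, was the highest of all at 39.6 TPM. The log2 difference of 0.68 ± 0.31 (SE, adjusted p = 0.14) did not pass, and without that library it was 0.89 ± 0.29 (SE, adjusted p = 0.028). From peak to early resolution the diet difference changed by 0.00 ± 0.41 (SE, adjusted p = 1).

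By sex label, Cd36 was lower in male-labelled libraries at peak by -0.76 ± 0.28 (SE, adjusted p = 0.026) as deposited. All genes were shifted by -0.29 in that comparison, in which 51.0% of them were called. After median-of-ratios scaling the difference was -0.42 ± 0.26 (SE, adjusted p = 0.23) and did not pass. The change of the difference from peak to early resolution was 1.54 ± 0.41 (SE, adjusted p = 0.0068) as deposited, where 31.9% of genes were called, and 1.17 ± 0.38 (SE, adjusted p = 0.032) after scaling. It passed both ways: the male-labelled controls were the lower ones at peak and the female-labelled controls were the lower ones at early resolution.

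Lpl, at chr8:68880491-68907448 on the plus strand, is the enzyme that acts on circulating lipoproteins, and adult hepatocytes are known to make little of it. It was low in all but a single library. At peak it stood at 2.31, 2.53, 1.18 and 2.65 TPM in ethanol-labelled males and 81.2, 2.31, 2.10 and 2.63 TPM in ethanol-labelled females, against 1.87, 1.80, 1.70 and 1.04 TPM in control-labelled males and 1.81, 3.27, 2.56 and 1.24 TPM in control-labelled females. The value of 81.2 TPM belongs to peak ethanol female 1. That library also held 2432 TPM of Acta1 and 612 TPM of Fabp3, both known from muscle, and a muscle marker sum of 3178 TPM. With it the log2 difference was 0.83 ± 0.41 (SE, adjusted p = 0.13), and without it 0.22 ± 0.23 (SE, adjusted p = 0.5). At early and late resolution Lpl ranged from 2.18 to 3.79 TPM (median 2.73) in ethanol-labelled libraries, against 0.763 to 3.33 TPM (median 1.82) in controls, and from 1.86 to 6.79 TPM (median 4.14) against 1.45 to 6.05 TPM (median 2.07). Neither difference passed with all libraries, at 0.56 ± 0.42 (SE, adjusted p = 0.4) and 0.65 ± 0.44 (SE, adjusted p = 0.33). Without the 3 libraries that stand apart the spread was smaller and both passed, at 0.56 ± 0.19 (SE, adjusted p = 0.033) and 0.64 ± 0.21 (SE, adjusted p = 0.039).

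**Figure D2:**
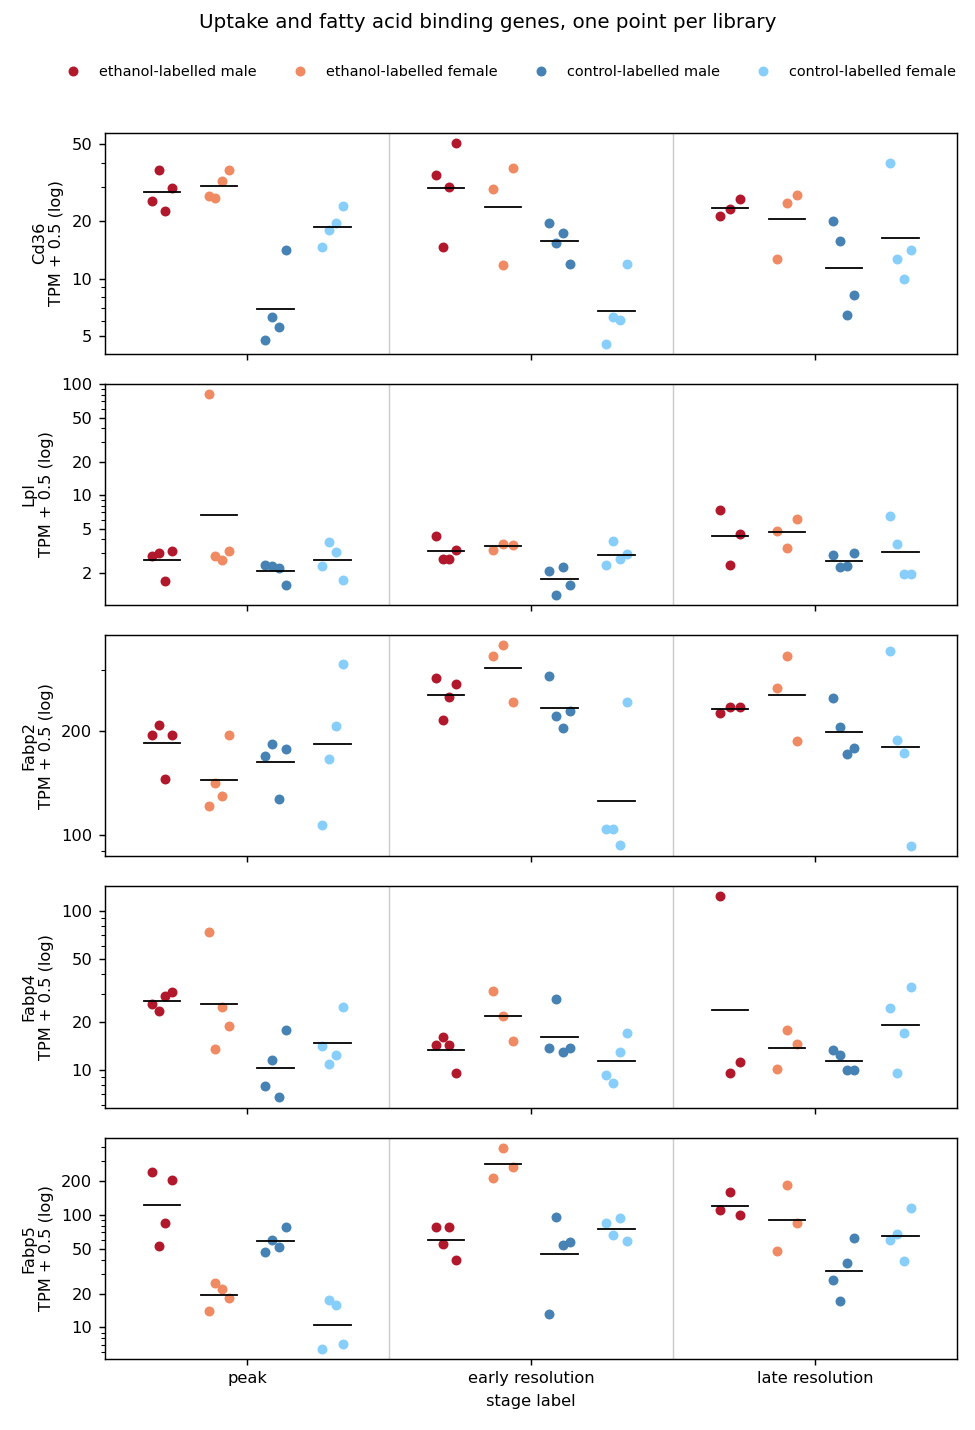
TPM + 0.5 on a log axis for Cd36, Lpl, Fabp2, Fabp4 and Fabp5, a point per library and a bar at the geometric mean of each group, by stage and by diet and sex label. Lpl stands at 81.2 TPM in a single peak ethanol-labelled female, and Fabp5 in female-labelled libraries lies at 5.97 to 24.6 TPM at peak and at 58.3 to 397 TPM at early resolution.

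Fabp5, the epidermal type FABP, at chr3:10012548-10016607 on the plus strand, separated the sex labels at peak and not at the later stages. At peak its values were 242, 52.4, 84.5 and 203 TPM in ethanol-labelled males and 13.4, 24.6, 21.5 and 17.9 TPM in ethanol-labelled females, against 46.9, 59.8, 51.2 and 77.3 TPM in control-labelled males and 5.97, 17.0, 15.3 and 6.56 TPM in control-labelled females. No male-labelled library overlapped a female-labelled one. Male-labelled libraries were higher by 2.56 ± 0.34 (SE, adjusted p = 1.6e-06), which is 5.88-fold, in 8 of 8 male-labelled libraries, and by 2.90 ± 0.36 (SE, adjusted p = 7.4e-07) after scaling. It was called within the ethanol label, at 2.65 ± 0.48 (SE, adjusted p = 0.00013), and within the control label, at 2.46 ± 0.48 (SE, adjusted p = 0.0033), where 49.4% and 2.90% of genes were called. With Cd36 it made 2 of 10 members called by sex label at peak as deposited, and it was the single one after scaling, which called 31.6% of all genes.

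At early resolution Fabp5 stood at 77.1, 54.2, 78.4 and 39.5 TPM in ethanol-labelled males and 212, 397 and 266 TPM in ethanol-labelled females, against 12.8, 96.0, 53.7 and 57.1 TPM in control-labelled males and 84.1, 66.6, 93.4 and 58.3 TPM in control-labelled females. The 3 ethanol-labelled females were the highest of this stage, and male-labelled libraries were now lower by -1.48 ± 0.35 (SE, adjusted p = 0.038), in a comparison that called 0.596% of genes. That call was lost when any of 8 of the 15 libraries was left out. At late resolution the values were 112, 161 and 98.6 TPM in ethanol-labelled males and 47.0, 184 and 84.7 TPM in ethanol-labelled females, against 26.0, 16.7, 37.0 and 61.5 TPM in control-labelled males and 59.1, 67.2, 38.7 and 115 TPM in control-labelled females, the sex labels overlapped, and their difference was -0.30 ± 0.37 (SE, adjusted p = 0.64). The sex-label difference changed from peak to early resolution by -4.04 ± 0.49 (SE, adjusted p = 5.2e-06), and by -4.41 ± 0.52 (SE, adjusted p = 1.4e-06) after scaling. From peak to late resolution it changed by -2.86 ± 0.50 (SE, adjusted p = 0.00035), beside 36.5% of genes called, and by -3.26 ± 0.54 (SE, adjusted p = 0.00029) after scaling. These changes passed with each of the libraries left out in turn.

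Some monocyte-derived macrophage markers also differed by sex label, at peak only after scaling, and their part in the differences of Fabp5 was not tested. Of 5 such markers 3 were tested, of which 0 were called at peak as deposited and 2, Trem2 and Spp1, were higher after scaling. Of all genes 51.0% and 31.6% were called there in either direction. The sum of the 5 markers at peak ranged from 27.1 to 148 TPM in male-labelled libraries, against 40.5 to 66.1 TPM in female-labelled libraries. It was highest in peak ethanol males 1 and 4, at 139.8 and 148 TPM, which also had the highest Fabp5 of that stage. Spp1 made up most of that sum, at 136 TPM in peak ethanol male 4. Over all libraries its median was 44.5 TPM, against 6.61 TPM for Cd9 and at most 0.864 TPM for Ccr2, Trem2 and Gpnmb. At early and at late resolution 1 of the 3, Cd9, was lower in male-labelled libraries both as deposited and after scaling, with sums of 29.8 to 78.8 TPM against 38.6 to 107 TPM at early and 30.2 to 60.5 TPM against 35.1 to 114 TPM at late resolution. Of all genes 0.596% and 3.25% were called there as deposited, and 1.83% and 9.55% after scaling.

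Among the 12 group means of Fabp5, early ethanol female was highest at 292 ± 94.9 TPM (SD, n = 3), followed by peak ethanol male at 145 ± 91.3 TPM (SD, n = 4) and late ethanol male at 124 ± 33.1 TPM (SD, n = 3). The lowest were peak control female at 11.2 ± 5.77 TPM (SD, n = 4) and peak ethanol female at 19.4 ± 4.80 TPM (SD, n = 4). The ranges of these lowest groups overlapped, and so did those of peak and late ethanol males.

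By diet label, Fabp5 was called higher at each stage as deposited. The log2 differences were 0.97 ± 0.34 (SE, adjusted p = 0.031) at peak, 1.18 ± 0.35 (SE, adjusted p = 0.019) at early resolution and 1.20 ± 0.37 (SE, adjusted p = 0.027) at late resolution. Ethanol-labelled libraries lay on the higher side in 7 of 8, 6 of 7 and 5 of 6 cases. After scaling they were 0.89 ± 0.36 (SE, adjusted p = 0.054), 0.99 ± 0.38 (SE, adjusted p = 0.066) and 1.11 ± 0.39 (SE, adjusted p = 0.041), so the calls at peak and at early resolution ended. As deposited, the peak call was lost without any of 8 of 16 libraries, the early call without either of 2 of 15 (early ethanol female 2 or early control male 1) and the late call without any of 4 of 14. Over all 14 late leave-outs the value ranged from 0.94 to 1.43.

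Fabp4, the adipocyte and macrophage type FABP that capillary endothelium also makes, lies 187.5 kb from Fabp5 at chr3:10204088-10208576 on the minus strand. At peak it stood at 25.2, 23.0, 28.7 and 30.5 TPM in ethanol-labelled males and 73.0, 13.0, 24.3 and 18.3 TPM in ethanol-labelled females, against 7.34, 11.1, 6.17 and 17.1 TPM in control-labelled males and 13.6, 10.3, 11.9 and 24.2 TPM in control-labelled females. The 4 ethanol-labelled males lay above every control-labelled male, and in the female label only peak ethanol female 1, at 73.0 TPM, and 1 other library lay above the highest control. The log2 difference was 1.12 ± 0.36 (SE, adjusted p = 0.018). Without peak ethanol female 1 alone it was 0.87 ± 0.35 (SE, adjusted p = 0.059), and without all 3 libraries that stand apart it was 0.87 ± 0.24 (SE, adjusted p = 0.0069).

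At early resolution Fabp4 ranged from 8.95 to 30.8 TPM (median 14.5) in ethanol-labelled libraries, against 7.69 to 27.2 TPM (median 12.8) in controls. At late resolution it ranged from 9.06 to 123 TPM (median 12.4) against 9.05 to 32.8 TPM (median 12.3), the highest being late ethanol male 1 at 123 TPM. The differences were 0.33 ± 0.37 (SE, adjusted p = 0.6) and 0.30 ± 0.39 (SE, adjusted p = 0.64), and neither passed. Without late ethanol male 1 the late value turned to -0.30 ± 0.31 (SE, adjusted p = 0.57). That library held 60.9 TPM of Cfd beside its Adipoq, and an adipocyte marker sum of 98.2 TPM.

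Endothelial markers were higher with the ethanol label at peak, as were Cd36, Fabp4, Plin2 and Fabp5, while Cidea was lower. In that comparison 17.3% of all genes were called higher. All 6 of 6 (Pecam1, Cdh5, Kdr, Stab2, Lyve1 and Cldn5) were called higher with the ethanol label, and their sum ranged from 39.4 to 93.0 TPM in ethanol-labelled libraries, against 18.6 to 55.1 TPM in controls. Both capillary markers that were tested of 4 listed were also higher, with sums of 30.4 to 70.2 TPM against 11.7 to 52.5 TPM. The part of these markers in the differences of Cd36 and Fabp4 was not tested. Of 6 resident macrophage markers, 0 were called at peak, 4 at early resolution and 3 at late resolution. After scaling 0, 3 and 3 of them were called higher and 0 lower, and their part was not tested either. Stellate cell markers were called higher for 3 of 5 at peak, with sums of 71.3 to 237 TPM against 33.6 to 100.3 TPM, for 2 at early and 1 at late resolution, and their part was not tested. Among these markers, Des was highest in peak ethanol female 1, the library with muscle transcripts, at 109 TPM. Its median over all libraries was 1.05 TPM. At early resolution 1 of 6 endothelial markers was called and at late resolution 0. After scaling 0 endothelial markers were called at either stage, and 1 stellate cell marker was higher at each. Of all genes 16.7% and 12.8% were called in either direction at early and late resolution as deposited. After scaling these shares were 16.7% and 21.1%.

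**Figure D3:**
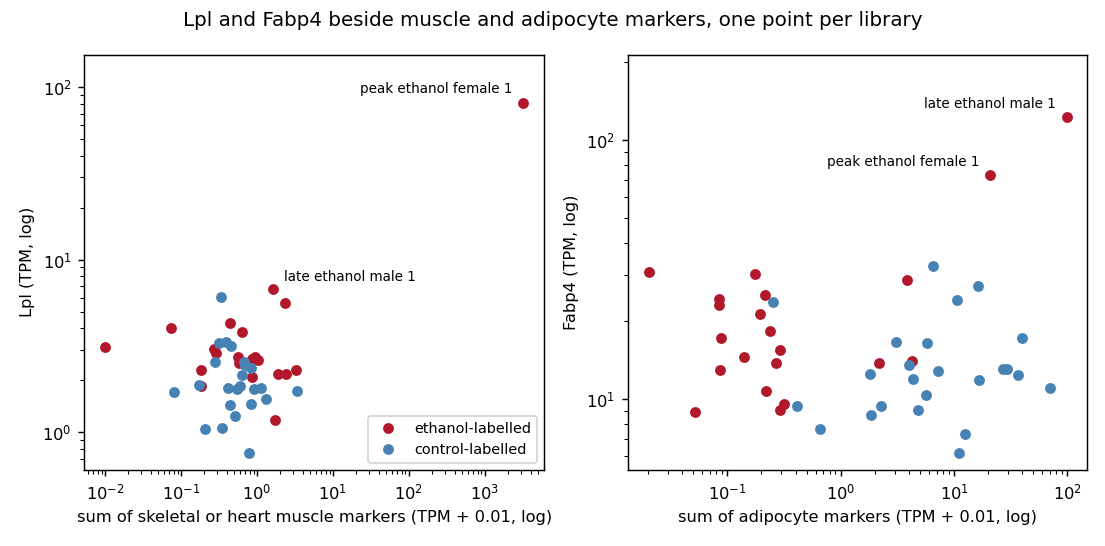
Lpl against the sum of 6 muscle markers (left) and Fabp4 against the sum of 6 adipocyte markers (right), in TPM on log axes, a point per library, coloured by diet label. Peak ethanol female 1 stands alone in the left panel at 81.2 TPM of Lpl, and late ethanol male 1 has the highest Fabp4 in the right panel, 123 TPM.

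Fabp2, the intestinal type FABP, at chr3:122895072-122899506 on the plus strand, was the second most abundant member, and its lowest library held 92.6 TPM. The enterocyte markers Alpi, at 0 in all 45 libraries, Sis, at 0 in 44, and Cdx2, at 0 in 42, were absent or nearly so. Of the 6 markers only Apoa4, which liver also makes, passed the low-value limit, and it was called at no stage by diet label. At peak Fabp2 ranged from 121 to 207 TPM (median 169.7) in ethanol-labelled libraries, against 107 to 313 TPM (median 173) in controls, a log2 difference of -0.09 ± 0.20 (SE, adjusted p = 0.79). At early resolution it stood at 285, 215, 251 and 274 TPM in ethanol-labelled males and 329, 354 and 242 TPM in ethanol-labelled females, against 288, 221, 203 and 228 TPM in control-labelled males and 104, 104, 93.3 and 242 TPM in control-labelled females. The female-labelled controls were the low group, 3 of them between 93.3 and 104 TPM and the fourth at 241.8 TPM. The difference was 0.70 ± 0.21 (SE, adjusted p = 0.018) as deposited and 0.52 ± 0.20 (SE, adjusted p = 0.071) after scaling, where the call ended. It also ended without early ethanol female 2, at an adjusted p of 0.063. Within the female label it was 1.14 ± 0.30 (SE, adjusted p = 0.015) after scaling and within the male label -0.10 ± 0.27 (SE, adjusted p = 0.87), with an interaction of -1.24 ± 0.40 (SE, adjusted p = 0.59). At late resolution the difference was 0.36 ± 0.22 (SE, adjusted p = 0.27).

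Plin2, the main perilipin of the liver and a droplet coat that is degraded when it has no lipid to bind, lies at chr4:86648386-86670060 on the minus strand. Its peak values were 1897, 2186, 1159 and 2166 TPM in ethanol-labelled males and 1439, 1733, 2948 and 1567 TPM in ethanol-labelled females, against 529, 576, 497 and 1215 TPM in control-labelled males and 821, 1287, 1319 and 983 TPM in control-labelled females. Ethanol-labelled males were high and male-labelled controls low, and these overlapped only through the lowest ethanol-labelled male, at 1159 TPM, and the highest male-labelled control, at 1215 TPM. The log2 difference was 1.11 ± 0.22 (SE, adjusted p = 0.00031), or 2.16-fold, in 8 of 8 ethanol-labelled libraries. By sex label it was 1.45 ± 0.32 (SE, adjusted p = 0.0011) in males and 0.77 ± 0.32 (SE, adjusted p = 0.14) in females, and the difference between these, 0.69 ± 0.45 (SE, adjusted p = 0.48), did not pass.

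At early resolution Plin2 stood at 1161, 534, 765 and 1569 TPM in ethanol-labelled males and 1801, 714 and 1003 TPM in ethanol-labelled females, against 1079, 1869, 912 and 1129.9 TPM in control-labelled males and 574, 619, 627 and 705 TPM in control-labelled females, and the diet labels overlapped over most of their range. The difference was 0.21 ± 0.23 (SE, adjusted p = 0.59). At late resolution the values were 801, 1066 and 1216 TPM in ethanol-labelled males and 521, 1367 and 818 TPM in ethanol-labelled females, against 855, 1018, 989 and 924 TPM in control-labelled males and 1429, 848, 979.9 and 777 TPM in control-labelled females, with a difference of -0.07 ± 0.24 (SE, adjusted p = 0.88) and a 95% interval of -0.56 to 0.43. The diet difference changed from peak to late resolution by -1.18 ± 0.33 (SE, adjusted p = 0.037), beside 3.98% of genes called, but that call was lost when any of 13 of 30 libraries was left out. From peak to early resolution it changed by -0.90 ± 0.32 (SE, adjusted p = 0.2). There 0.00% of genes passed (0 genes with limma, 1879 of them at an unadjusted p under 0.05, and 20 after median-of-ratios scaling). No member passed in it as deposited.

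Plin4 and Plin5, perilipins of adipose tissue and muscle and of tissues that burn fatty acids, are neighbours 1.8 kb apart on the minus strand of chromosome 17, at chr17:56100591-56109803 and chr17:56111601-56117596. Neither was called by diet label at any stage. Plin4 ranged from 10.3 to 45.9 TPM (median 21.3) in ethanol-labelled libraries, against 19.9 to 44.2 TPM (median 27.5) in controls at peak. At late resolution it stood at 21.1, 13.4 and 8.26 TPM in ethanol-labelled males and 3.78, 8.08 and 6.61 TPM in ethanol-labelled females, against 20.7, 19.3, 15.5 and 7.75 TPM in control-labelled males and 30.3, 12.7, 12.7 and 30.9 TPM in control-labelled females. The 3 ethanol-labelled females were the lowest group, and the difference of -0.91 ± 0.34 (SE, adjusted p = 0.074) missed the threshold, and without late control male 4 it passed, at -1.06 ± 0.35 (SE, adjusted p = 0.048). Plin4 differed by -0.47 ± 0.32 (SE, adjusted p = 0.28) at peak and 0.11 ± 0.33 (SE, adjusted p = 0.88) at early resolution. Plin5 ranged from 14.9 to 48.9 TPM over all libraries. Its diet differences were 0.02 ± 0.18 (SE, adjusted p = 0.96), 0.29 ± 0.18 (SE, adjusted p = 0.3) and -0.02 ± 0.19 (SE, adjusted p = 0.95) from peak to late resolution. The 95% interval at peak was -0.34 to 0.38. Its sex-label difference changed from peak to early resolution by 0.74 ± 0.26 (SE, adjusted p = 0.029), but after scaling by 0.36 ± 0.29 (SE, adjusted p = 0.39), which did not pass. As deposited it was also lost without any of 3 of 31 libraries (peak control male 1, peak ethanol male 1 or early control male 1).

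**Figure D4:**
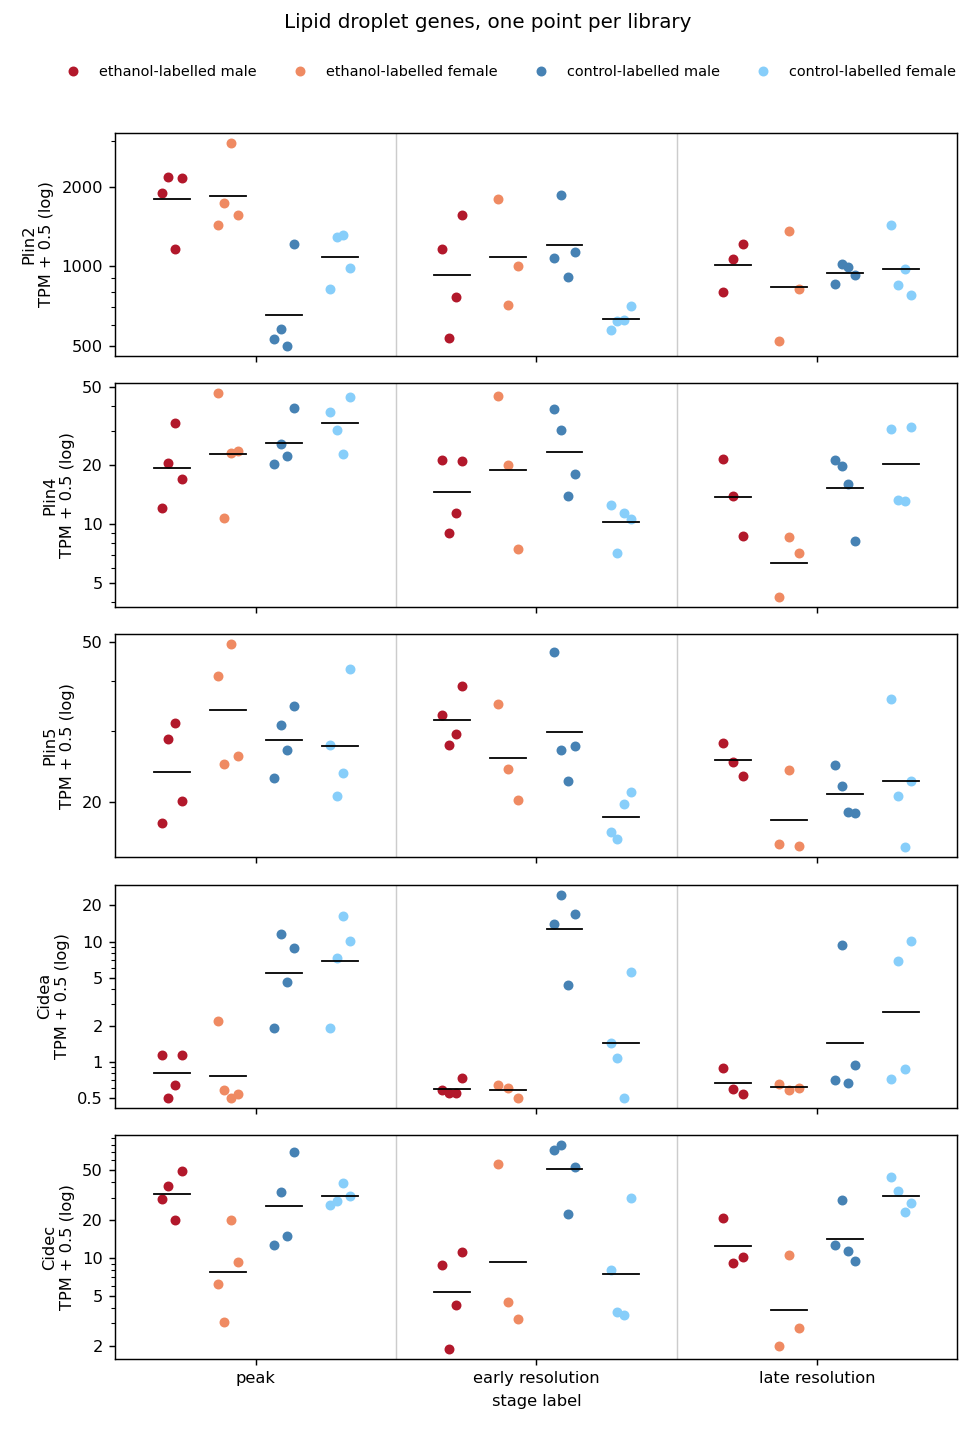
TPM + 0.5 on a log axis for Plin2, Plin4, Plin5, Cidea and Cidec, a point per library and a bar at the geometric mean of each group, by stage and by diet and sex label. Cidea stays at or below 1.68 TPM in every ethanol-labelled library, against up to 24.1 TPM in controls, and Cidec in male-labelled ethanol libraries lies at 19.4 to 48.6 TPM at peak and at 1.39 to 10.6 TPM at early resolution.

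Cidea, a CIDE protein of brown fat that fatty mouse liver is also known to make, showed the largest diet-label difference of the 10 genes at peak and at early resolution. Its peak values were 0.644, 0, 0.137 and 0.649 TPM in ethanol-labelled males and 1.68, 0.0837, 0 and 0.0397 TPM in ethanol-labelled females, against 1.40, 11.1, 4.11 and 8.27 TPM in control-labelled males and 1.42, 6.86, 15.9 and 9.60 TPM in control-labelled females. The groups touched only through peak ethanol female 1 at 1.68 TPM, which lay above the lowest control in each sex label. The log2 difference was -2.97 ± 0.56 (SE, adjusted p = 0.00012), and without that library -3.22 ± 0.57 (SE, adjusted p = 5.8e-05). At early resolution the values were 0.0850, 0.0451, 0.0456 and 0.235 TPM in ethanol-labelled males and 0.136, 0.106 and 0 TPM in ethanol-labelled females, against 13.5, 24.1, 3.85 and 16.5 TPM in control-labelled males and 0.944, 0.572, 0 and 5.08 TPM in control-labelled females. No ethanol-labelled library exceeded 0.235 TPM, while a single female-labelled control was also at 0. The difference was -2.86 ± 0.58 (SE, adjusted p = 0.00062) as deposited and -2.89 ± 0.59 (SE, adjusted p = 0.00061) after scaling.

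At late resolution Cidea stood at 0.392, 0.0948 and 0.0423 TPM in ethanol-labelled males and 0.154, 0.0868 and 0.110 TPM in ethanol-labelled females, against 0.202, 8.80, 0.166 and 0.442 TPM in control-labelled males and 0.225, 6.39, 0.377 and 9.55 TPM in control-labelled females. Controls split widely, with 3 of 8 between 6.39 and 9.55 TPM and the others at or below 0.442 TPM, so that the difference of -1.59 ± 0.60 (SE, adjusted p = 0.074) did not pass. Without late control female 1 it was -1.89 ± 0.60 (SE, adjusted p = 0.024). Without late control female 3 it was -1.84 ± 0.61 (SE, adjusted p = 0.039), which also passed. Fold changes of this gene are on the log2(TPM + 0.5) scale, which understates them at levels this low. Of 6 adipocyte markers 2 were tested, and 1 was called lower at peak and at early resolution, beside 9.81% and 2.46% of all genes. At peak the sum of the 6 ranged from 0.0745 to 20.8 TPM (median 0.185) in ethanol-labelled libraries, against 4.01 to 70.3 TPM (median 10.7) in controls. The marker called lower was Cfd, a secreted protease also named adipsin, and its part in the difference of Cidea was not tested. It ranged from 0 to 15.0 TPM in peak ethanol-labelled libraries, against 4.01 to 70.0 TPM in peak controls. Both the sum of 20.8 TPM and the 15.0 TPM of Cfd were in peak ethanol female 1. Adipoq reached no more than 0.269 TPM in any control library at peak, early or late resolution, and Plin1 no more than 0.0109 TPM.

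Cidec, also called FSP27 and known as a driver of large droplets in fatty mouse liver, lies at chr6:113424634-113435760 on the minus strand and was called lower with the ethanol label at early and late resolution. At peak it stood at 29.2, 37.2, 19.4 and 48.6 TPM in ethanol-labelled males and 5.73, 2.56, 19.7 and 8.82 TPM in ethanol-labelled females, against 12.2, 32.9, 14.4 and 69.5 TPM in control-labelled males and 25.8, 28.0, 39.3 and 30.4 TPM in control-labelled females. Ethanol-labelled females were the low group, while ethanol-labelled males lay among the controls. The diet difference was -0.84 ± 0.51 (SE, adjusted p = 0.22) over both sex labels and did not pass. Within the female label it was -2.0 ± 0.72 (SE, adjusted p = 0.087), where 6.65% of genes were called, and with the replicate number as a block it passed, at -2.0 ± 0.55 (SE, adjusted p = 0.04), where 5.18% were. Within the ethanol label, male-labelled libraries were higher by 2.06 ± 0.72 (SE, adjusted p = 0.018), in a comparison with 49.4% of genes called, and by 2.51 ± 0.75 (SE, adjusted p = 0.011) after scaling. Without peak ethanol female 2 that call was lost, at 1.62 ± 0.76 (SE, adjusted p = 0.088).

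At early resolution Cidec stood at 8.31, 1.39, 3.75 and 10.6 TPM in ethanol-labelled males and 55.5, 3.93 and 2.73 TPM in ethanol-labelled females, against 72.2, 78.6, 21.9 and 52.9 TPM in control-labelled males and 7.53, 3.18, 3.01 and 29.4 TPM in control-labelled females. Here the ethanol-labelled males lay below all male-labelled controls, and the females overlapped, with early ethanol female 1 the highest of them at 55.5 TPM. The diet difference was -1.48 ± 0.53 (SE, adjusted p = 0.048), and -1.64 ± 0.55 (SE, adjusted p = 0.035) after scaling. Within the male label it was -3.27 ± 0.72 (SE, adjusted p = 0.0027), where 8.39% of genes were called, against 0.31 ± 0.77 (SE, adjusted p = 0.89) within the female label. At late resolution the values were 20.2, 8.62 and 9.59 TPM in ethanol-labelled males and 1.47, 10.02 and 2.25 TPM in ethanol-labelled females, against 12.1, 28.7, 10.9 and 9.03 TPM in control-labelled males and 43.8, 33.4, 22.9 and 26.9 TPM in control-labelled females, and it was now the ethanol-labelled females that lay below all controls of their sex label. The difference was -1.61 ± 0.55 (SE, adjusted p = 0.046), with -0.19 ± 0.77 (SE, adjusted p = 0.92) in males and -3.03 ± 0.77 (SE, adjusted p = 0.024) in females, where 2.46% of genes were called.

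The interaction of diet and sex label did not pass for Cidec at any stage. It was 2.33 ± 1.01 (SE, adjusted p = 0.34) at peak, -3.59 ± 1.05 (SE, adjusted p = 0.76) at early resolution and 2.84 ± 1.09 (SE, adjusted p = 0.45) at late resolution. The averaged diet calls were also weak: without any of 9 of 15 libraries the early call was lost, and without any of 11 of 14 the late one. Over all genes 0.160%, 0.00889% and 0.0445% were called in these interactions, and 0 of the 10 members, with 2, 6 and 2 of them at an unadjusted p under 0.05 by limma, beside 13.3%, 4.59% and 8.04% of all genes at that threshold. By sex label at late resolution, averaged over the diet labels, limma called 3.25% of genes and 0 members, with 0 members at an unadjusted p under 0.05, beside 24.4% of all genes.

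Apart from the group means, the 10 genes varied from library to library, and this variation was not used to choose them. Deviations of log2(TPM + 0.5) from each group's mean were correlated over 45 libraries for all 45 pairs, with 100000 permutations within groups, two-sided, and Benjamini-Hochberg adjustment over the pairs. The adjusted p was under 0.05 for 13 pairs, all positive. How many pairs of other genes would pass was not computed, so this count cannot be called particular to these genes. The neighbours Plin4 and Plin5 had the highest correlation, a Pearson r of 0.74 (permutation p = 1e-05, the smallest these permutations can give, adjusted p = 0.00045). Spearman's rho was 0.78 (permutation p = 1e-05). The r was 0.72 without the 2 libraries most distant in Plin4, with Plin5 not considered, and 0.73 without the 3 that stand apart. Plin2 and Cidec followed, with an r of 0.71 (permutation p = 2e-05, adjusted p = 0.00045) and a rho of 0.63 (permutation p = 8e-05). Their r was 0.68 without the 2 libraries most distant in Plin2 and 0.76 without the 3 that stand apart.

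Cidec was in 7 of the 13 pairs, with Plin2, Plin4, Plin5, Cd36, Fabp2, Fabp4 and Cidea. Cd36 and Plin2 had an r of 0.61 (permutation p = 0.00035, adjusted p = 0.0031) and a rho of 0.56 (permutation p = 0.00044). For Fabp4 and Plin4 the r was 0.60 (permutation p = 4e-05, adjusted p = 0.0006) and the rho 0.62 (permutation p = 0.00013). No pair with Fabp5 passed, and none with Lpl. The r of Lpl and Fabp4 was 0.36 (permutation p = 0.16, adjusted p = 0.35), the rho was -0.01 (permutation p = 0.95), and r turned to -0.53 without the 3 libraries that stand apart. TPM of a library share its total, so a few very abundant transcripts can move all genes of a library together.

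**Figure D5:**
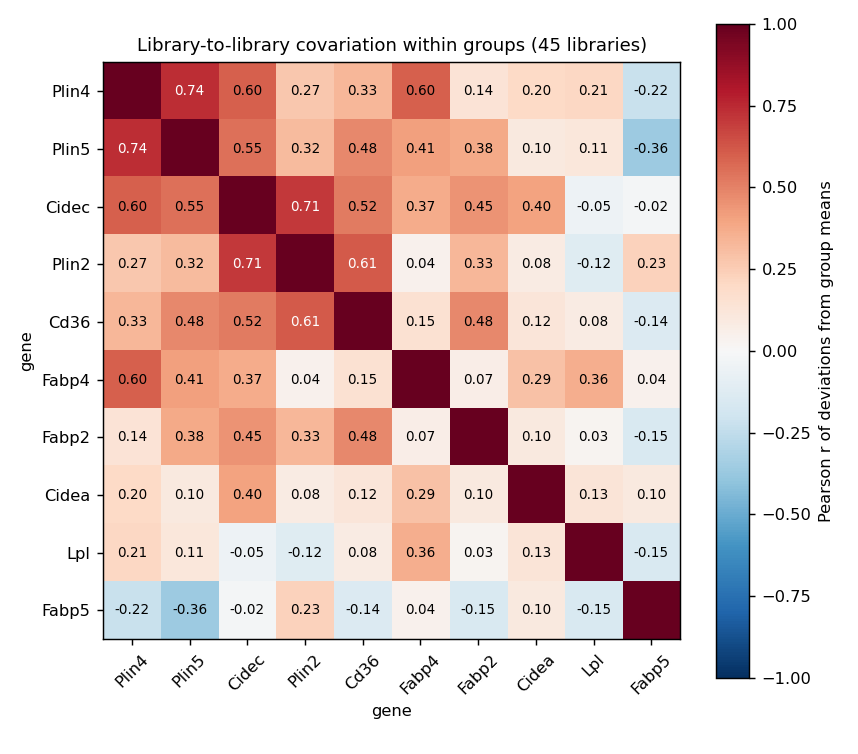
Pearson r between the deviations of each pair of genes from their group means over 45 libraries, on a colour scale from -1 to 1. The highest values are 0.74 for Plin4 and Plin5 and 0.71 for Plin2 and Cidec, and Fabp5 in the last row lies between -0.36 and 0.23 with the other genes.

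The promoters of both pairs with the highest within-group correlations among these 10 genes are shown. RefSeq promoter windows of GRCm38.p6, 250 bases before to 50 bases after the start, were found for 6 of the 10 genes, and Plin5 and Cidec have 2 each, of which the one with the more upstream start is shown. Capitals mark the E-box CACGTG, the TATA-like TATAAG and the CCAAT box, searched on both strands, as were TATAAA, TTCNNNGAA and direct repeats of AGGTCA, and of the looser AGGNCA, with a single base between the copies. All 4 windows run 5′ to 3′ on the minus strand.
Plin4, chr17:56109733-56110032: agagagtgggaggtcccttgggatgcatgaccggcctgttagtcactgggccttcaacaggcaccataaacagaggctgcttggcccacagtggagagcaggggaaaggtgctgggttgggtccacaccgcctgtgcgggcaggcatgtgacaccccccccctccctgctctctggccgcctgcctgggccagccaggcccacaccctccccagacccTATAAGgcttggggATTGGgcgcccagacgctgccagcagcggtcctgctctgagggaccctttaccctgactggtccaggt
Plin5, chr17:56117499-56117798: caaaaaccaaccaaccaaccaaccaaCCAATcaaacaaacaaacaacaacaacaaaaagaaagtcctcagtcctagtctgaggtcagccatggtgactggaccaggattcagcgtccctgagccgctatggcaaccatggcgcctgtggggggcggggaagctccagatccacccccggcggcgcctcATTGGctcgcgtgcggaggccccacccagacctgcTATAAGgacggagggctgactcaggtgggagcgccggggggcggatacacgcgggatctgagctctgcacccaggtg
Plin2, chr4:86670010-86670309: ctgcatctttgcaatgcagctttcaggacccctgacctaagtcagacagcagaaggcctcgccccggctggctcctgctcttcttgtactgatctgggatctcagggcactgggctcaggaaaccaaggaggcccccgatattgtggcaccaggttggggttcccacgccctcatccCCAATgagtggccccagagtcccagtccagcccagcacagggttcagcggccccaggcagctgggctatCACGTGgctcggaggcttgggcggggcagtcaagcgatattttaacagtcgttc
Cidec, chr6:113435711-113436010: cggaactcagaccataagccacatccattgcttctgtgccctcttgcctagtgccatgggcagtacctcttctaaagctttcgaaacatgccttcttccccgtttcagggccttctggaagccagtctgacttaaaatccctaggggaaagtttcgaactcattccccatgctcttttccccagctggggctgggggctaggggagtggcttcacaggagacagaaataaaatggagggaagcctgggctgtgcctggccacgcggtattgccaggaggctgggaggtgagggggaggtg

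Both Plin4 and Plin5 held TATAAG close to the start, at -32 and -27, and this motif, chosen after the windows were read, occurs in 7.43% of 32851 mouse promoter windows. Both also held CCAAT, at -18 in Plin4 and at -224 and -62 in Plin5, which 37.4% of windows hold. Neither motif was particular to these genes: Fabp2 held TATAAG at -199, and Fabp2 and Cd36 held CCAAT at -70 and -195. Plin2 held CACGTG at -4 and CCAAT at -73, against 7.15% of windows for the E-box. Neither direct repeat, found in 0.0396% and 0.381% of windows, was present in any of the members' windows, and neither Cidec window, nor the second Plin5 window, held any of the motifs searched. These are matches of letters only.

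Other droplet proteins were also called in both directions. Of 18 tested at peak, 4 were called higher and 4 lower with the ethanol label, with a median of 0.05, the same as all genes. Of all genes 17.3% were called higher and 9.81% lower there. Hilpda, an inhibitor of triglyceride lipase, was higher by 1.49 ± 0.32 (SE, adjusted p = 0.00067) and Pnpla3, a droplet-bound hydrolase and acyltransferase, by 1.30 ± 0.32 (SE, adjusted p = 0.0026). Fitm1, which binds fat for droplet budding, was lower by -1.77 ± 0.23 (SE, adjusted p = 2.2e-07) and Ldah, a droplet hydrolase, by -0.68 ± 0.13 (SE, adjusted p = 0.00013). Pnpla3, Fitm1 and Ldah were called at all 3 stages, Pnpla3 at 1.86 and 1.63, Fitm1 at -1.05 and -1.18 and Ldah at -0.51 and -0.62 at early and late resolution, and after scaling each was called there too. Counts were 2 higher and 2 lower of 18 at early resolution and 1 and 2 at late resolution, and after scaling 1 and 3 at each. All-gene shares were 14.3% higher and 2.46% lower at early and 8.82% and 3.98% at late resolution. After scaling they were 16.7% and 21.1% in either direction.

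Among partners of lipoprotein lipase, several were called by diet label. Of 13 tested, 4 were higher and 2 lower at peak, 4 and 0 at early resolution, and 3 and 1 at late resolution, with medians of 0.14, 0.24 and 0.16. After scaling the counts were 3 and 3, 2 and 0, and 3 and 1. The shares of all genes called in either direction were 27.1%, 16.7% and 12.8% as deposited, and 35.7%, 16.7% and 21.1% after scaling. The lipoprotein receptor Vldlr was higher by 1.52 ± 0.19 (SE, adjusted p = 8.4e-08) at peak, 1.45 at early and 1.24 at late resolution. Hepatic lipase, Lipc, was higher by 0.78 ± 0.13 (SE, adjusted p = 1.6e-05) at peak, 0.98 and 0.75. Gpihbp1, which anchors lipase to capillary endothelium and is itself among the capillary markers above, was higher by 0.92 ± 0.20 (SE, adjusted p = 8e-04) at peak.

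Of 14 other uptake and activation genes, 1 was higher and 1 lower at peak, 2 and 1 at early resolution and 0 and 1 at late resolution. After scaling these counts were 0 and 2, 1 and 3, and 0 and 3. The all-gene shares beside them are those given for the lipase partners. The lower one at all stages was Acsl1, a fatty acid activating enzyme, at -0.92 ± 0.20 (SE, adjusted p = 6e-04) at peak, -0.71 at early and -0.81 at late resolution. By sex label at peak, 2 of 18 droplet proteins were called higher and 11 lower as deposited, beside 51.0% of all genes called. After scaling 6 were higher and 4 lower, beside 31.6%, so their direction there depends on the all-gene shift.

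Genes whose 12 group means ran most like those of a member were ranked by Pearson r among 9654 genes with a mean above 1 TPM, as a description. Cd36 ran most like Cdc26 (0.953) and Gstm2 (0.949), Fabp5 like the phospholipid transfer protein gene Pltp (0.901), and Plin2 like Stk40 (0.932). Cidea ran most like Cfd (0.906) and the droplet gene Fitm1 (0.881), and Cidec like Nlrp12 (0.931) and Mthfd2 (0.917), a mitochondrial folate enzyme. Fabp4 ran most like the sinusoidal endothelial gene Lyve1 (0.932), over group means that include peak ethanol female 1 and late ethanol male 1. For Lpl the likeness to Rab11b (0.981) rests on group means that include peak ethanol female 1.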

How the data were processed

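Gene expression was measured in 45 liver lysate libraries, made with a stranded mRNA kit after spin-column RNA isolation, per the labels' protocols. The authors deposited 1 table for 24972 entries, which was read as TPM although no source used here names that unit. Each library sums to between 999999 and 1000001, and low values fall with transcript length. The value that recurs between libraries in a single-transcript gene had a median of 10.4 times the library's commonest value in 66 genes under 500 bases, and of 0.081 times it in 159 genes over 1600 bases. The sequencing depth behind a value is unknown and no counting interval can be given. The genome build was mm10, per the submitters' processing notes, and the tool that aligned or counted reads is not given in the sources used here. Left out were 26 entries whose names had turned into dates. Coordinates are from GENCODE M21 and promoters from RefSeq.

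Values were taken as log2(TPM + 0.5), and genes averaging 0.5 TPM or more were tested with limma 3.58.1 under R 4.3.3. The model had 12 group means, a mean-dependent variance trend (residual df 33, prior df 3.8) and Benjamini-Hochberg adjustment over 11244 genes. Diet and sex-label differences are averaged over the other label. The script was tested on simulated data. Alternatives were other pseudocounts, filters and scalings, no trend, stages compared alone, a replicate block (same-numbered ethanol and control libraries deviated together in all 4 pairs of peak females, at r of 0.109 to 0.222, and in no other pair of groups throughout), and each library left out in turn. Leaving out 3 libraries together was added after seeing the data. Correlations were computed with scipy 1.17.1 and pandas 2.3.3 in Python 3.11.15, and figures drawn with matplotlib 3.10.9.

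The 10 genes, the related and marker lists, the tests and the naming rule were chosen with earlier results of these data known. By that rule, up to 4 genes of each related list with the smallest p per comparison could be named, and Pparg. The 3 genes most like each member over the 12 group means could be named too, and other markers are named where a result turns on them.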

Additional observations from a re-analysis of the deposited data

Results flagged for a closer look

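Single libraries stood far from the rest of their group of 4 in 7 of 90 sets of a gene and a group, where chance alone gives about 1 in 20. The share over all genes was not computed, and this count was not tested against chance. Lpl was at 81.2 TPM in peak ethanol female 1 and at 1.04 TPM in peak control male 4. Fabp2 was at 241.8 TPM in early control female 4 and Fabp4 at 27.2 TPM in early control male 2. Plin2 stood at 1215 TPM in peak control male 4, a library whose Cd36 of 13.5 TPM and Cidec of 69.5 TPM were also the highest of its group. Cidea was at 1.68 TPM in peak ethanol female 1 and at 8.80 TPM in late control male 2.

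Some effects differed between stages by a test of the difference itself. The male-labelled minus female-labelled difference of Fabp5 changed by -4.04 from peak to early resolution and by -2.86 from peak to late resolution, and that of Cd36 by 1.54 and of Plin5 by 0.74 from peak to early resolution. The ethanol-labelled minus control-labelled difference of Plin2 changed by -1.18 from peak to late resolution.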

How the results depend on the processing

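Results are given as the number of the 10 members called, and no difference that was called changed sign under any alternative. As deposited there were 5 at peak, 5 at early and 2 at late resolution by diet label, and 2, 1 and 0 by sex label. By diet label, the late count was 1 with a pseudocount of 2 (Cidec, adjusted p = 0.051) and 1 with no filter on low values (Cidec, adjusted p = 0.07), and 4 without the 3 libraries that stand apart. The peak count was 4 under either scaling, and median-of-ratios scaling called 35.7% of all genes there. The early count was 3 under median-of-ratios scaling, beside 16.7% of all genes, and 3 under quantile normalization. At late resolution median-of-ratios scaling called 1 member higher and 1 lower, beside 21.1% of all genes. By sex label, the peak count was 1 under either scaling, beside 31.6% of all genes under median-of-ratios scaling. The early count by sex label was 0 with no filter, with stages compared alone and with the replicate block. The change of the Plin2 diet difference from peak to late resolution (1 call) gave 0 with no filter, 0 with the replicate block (adjusted p = 0.12) and 0 without the 3 libraries. A mean of at least 5 TPM drops Cidea (3.42 TPM) and Lpl (4.29 TPM), so they have no value there.

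With each library left out in turn the count ranged from 4 to 5 at peak, 2 to 5 at early and 0 to 3 at late resolution by diet label. By sex label it ranged from 1 to 3 at peak, 0 to 1 at early and 0 to 0 at late resolution, and for the 3 interactions it was 0 throughout. For the change of the diet difference from peak it ranged from 0 to 1 to early and 0 to 1 to late resolution, and for that of the sex-label difference from 2 to 4 and 1 to 1. The cause of these changes was not tested.

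Replicate numbers did not pair the libraries of most comparisons: the correlation of deviations ranged from -0.371 to 0.25 over 21 ethanol and control pairs and was above 0.1 in 7 (all 4 at peak in the female label and 3 of 4 at early resolution in the male label), and from -0.433 to 0.527 over 22 male and female pairs, above 0.1 in 6. With the replicate block the Cidec call at early resolution was also lost (-1.15, adjusted p = 0.069). Groups of 3 or 4 libraries, with no known depth, limit what could be detected.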

Other observations

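Genes upstream and downstream of the droplet were measured in the same libraries. Pparg, the adipogenic nuclear receptor that is known to raise Cd36, Cidec and Plin2 in fatty mouse liver, lies at chr6:115360951-115490399 on the plus strand. At peak it stood at 23.6, 27.2, 14.9 and 27.8 TPM in ethanol-labelled males and 22.0, 20.1, 18.3 and 33.6 TPM in ethanol-labelled females, against 8.55, 17.5, 13.8 and 13.8 TPM in control-labelled males and 17.2, 15.0, 16.6 and 16.4 TPM in control-labelled females. Every ethanol-labelled female lay above every control-labelled female, while in males the lowest ethanol-labelled library, at 14.9 TPM, lay below the highest control, at 17.5 TPM. The log2 difference was 0.63 ± 0.19 (SE, adjusted p = 0.013), and 0.55 ± 0.17 (SE, adjusted p = 0.0092) after median-of-ratios scaling. It was 0.34 ± 0.20 (SE, adjusted p = 0.26) at early and 0.10 ± 0.21 (SE, adjusted p = 0.79) at late resolution. Of 13 regulators tested, Pparg was the single one called at peak as deposited, beside 27.1% of all genes. After scaling 2 were higher and 2 lower at peak, beside 35.7%, and 2 and 1 at early resolution, beside 16.7%. As deposited 3 were called higher at early resolution, beside 14.3% of all genes. Those 3 were Cebpb, at 0.47 ± 0.11 (SE, adjusted p = 0.0037), and the xenobiotic receptors Nr1i2, at 0.54 ± 0.14 (SE, adjusted p = 0.0059), and Nr1i3, at 0.72 ± 0.24 (SE, adjusted p = 0.037). After scaling Cebpb was no longer called there, at 0.30 ± 0.12 (SE, adjusted p = 0.082). At late resolution Srebf1, the regulator of fatty acid synthesis, was higher by 0.89 ± 0.30 (SE, adjusted p = 0.046) and Cebpb lower by -0.38 ± 0.12 (SE, adjusted p = 0.028).

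Of 10 tested genes of triglyceride synthesis 1 was called higher at peak, 1 at early and 0 at late resolution, and 1 lower at late resolution. After scaling 1 was higher at peak and 1 at early resolution, and 1, 1 and 3 were lower from peak to late resolution. In either direction 27.1%, 16.7% and 12.8% of all genes were called as deposited, and 35.7%, 16.7% and 21.1% after scaling. The higher one as deposited was Gpat3, a glycerol-3-phosphate acyltransferase, at 1.26 ± 0.18 (SE, adjusted p = 2.2e-06) at peak and 1.02 ± 0.19 (SE, adjusted p = 0.00022) at early resolution. Lpin1, a phosphatidate phosphatase, was the lower one at late resolution, at -1.33 ± 0.41 (SE, adjusted p = 0.025). Dgat1 and Dgat2, which make the last step, were not called by diet label at early resolution, at 0.15 ± 0.11 (SE, adjusted p = 0.36) and 0.50 ± 0.21 (SE, adjusted p = 0.095).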
